A study of Mus musculus with 12 samples.

Results

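The messages described here are those of 36 marker genes of macrophages and other myeloid cells, read in cultured fat cells that had received a let-7 microRNA mimic or a negative control. The genes were taken as the rows of the raw count table whose Ensembl identifier carried a listed symbol, and 35 of the 36 had a row among the 15754 genes of the table. Aif1, a calcium-binding protein of macrophages, had no row in the table used here, so its level was not analysed. The cells were primary white adipocytes grown from the stromal vascular cells of epididymal fat (the fat pad beside the testis) of male wild-type C57BL/6 mice aged 8 weeks and fed chow. This vascular fraction is everything in the pad except the fat cells, so it holds fat cell precursors together with vessel and immune cells. All cultures, controls included, were induced with rosiglitazone, insulin, dexamethasone and IBMX, went on in rosiglitazone and insulin, were transfected at day 4 with a lipid reagent, and were harvested at day 7. The groups were let-7d-5p mimic, let-7e-5p mimic and negative control, with 4 libraries each. The question asked of the marker genes was how much myeloid message each culture held and whether it differed between mimic and control libraries, library by library.

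Macrophages are among the most common immune cells of epididymal fat, where they clear dying fat cells and take up lipid. They carry Fc receptors, which bind antibody and signal through the ITAM adaptors Tyrobp and Fcer1g, together with scavenger receptors, lysosomal proteins and the complement starter C1q. Their growth and identity rest on the receptor Csf1r and the transcription factor PU.1, which Spi1 encodes. Cultured fat cell precursors can carry such cells along, and levels of these messages are a common check on the purity of an adipocyte culture.

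The mature mouse sequences of the mimicked microRNAs are given because both act through the same seed, bases 2 to 8, written here in capitals (RefSeq, GRCm38.p6).
mmu-let-7d-5p: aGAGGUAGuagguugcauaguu
mmu-let-7e-5p: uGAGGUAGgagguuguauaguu
Counted from the 5′ end and with let-7d written before let-7e, the 22 bases differ at 3 places, A1U, U9G and C16U, all outside the seed. The let-7d sequence lies on chromosome 13 at 48536078 to 48536099 on the minus strand, and the let-7e sequence on chromosome 17 at 17830366 to 17830387 on the plus strand.

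By the series of their sample identifiers the libraries fall into ID run 1, with replicates 1 and 2 of every group, and ID run 2, with replicates 3 and 4. What distinguishes these runs is not stated in the labels. Total counts ran from 15071299 to 33396316 per library. Mimics and controls were therefore compared within a run or with a run term, and the runs were also set against each other. Whether replicates came from separate animals or cultures is not stated either, so each p-value is relative to a spread among libraries that may be purely technical. The fat cell label was checked with 6 defining markers. Of these, 5 had a row, and together Adipoq, Plin1, Cidec, Fabp4 and Pparg stood at 3524 to 5221 CPM (reads relative to the library total as scaled by TMM) in ID run 2 and 13930 to 15360 CPM in ID run 1. Defining markers of other blood cells were few: 1 of 8 neutrophil markers had a row (Mpo, 0.590 to 1.17 CPM), 1 of 4 monocyte markers (Plac8), 2 of 5 dendritic cell markers, 1 of 7 T and NK cell markers (Lck) and 1 of 5 B cell markers (Pax5), while all 5 mast cell markers had one, with a sum of 7.40 to 18.1 CPM.

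The 35 myeloid genes together made up far less of the libraries of ID run 2 than of ID run 1. Their summed level in ID run 2 was 375 and 202 CPM in let-7d replicates 3 and 4, 167 and 224 CPM in let-7e replicates 3 and 4, and 136 and 105 CPM in control replicates 3 and 4. In ID run 1 it was 1019 and 938 CPM in let-7d replicates 1 and 2, 1060 and 729 CPM in let-7e replicates 1 and 2, and 899 and 911 CPM in control replicates 1 and 2. Within ID run 2 all 4 mimic libraries were above both controls, and let-7d replicate 3 stood apart from the other 5 at 3.11 times the control mean of its run. The other mimic libraries of that run were at 1.68 (let-7d replicate 4), 1.39 (let-7e replicate 3) and 1.86 (let-7e replicate 4) times that mean. Within ID run 1 the ratios were close to 1, at 1.13 and 1.04 for let-7d and 1.17 and 0.805 for let-7e, and let-7e replicate 2 was below both controls. Gpnmb and Lyz2 had the highest mean CPM. Without them ID run 1 had 623 and 583 CPM with let-7d, 652 and 429 CPM with let-7e and 610 and 625 CPM in the controls. There let-7d was no longer above both controls. In ID run 2 all 4 mimic libraries stayed above both controls, at 216 and 100 CPM (let-7d) and 104 and 128 CPM (let-7e) against 85.7 and 63.4 CPM. In bulk RNA, fewer cells of a type and less RNA per cell cannot be told apart.

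**Figure D1:**
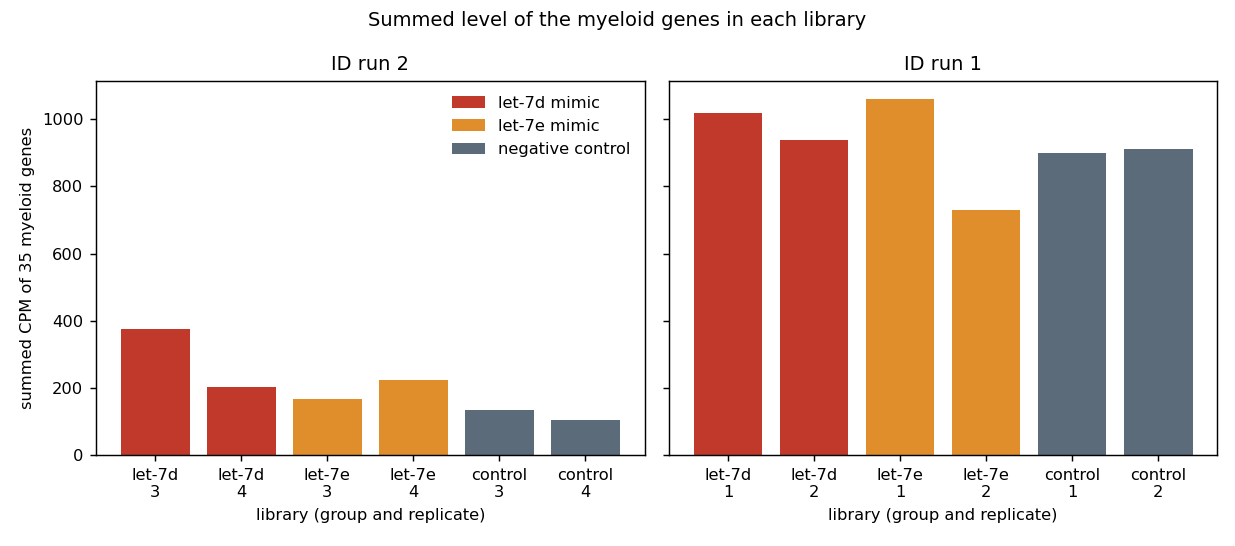
Bars give the summed CPM (TMM-scaled) of the 35 myeloid genes in each of the 12 libraries, on an axis from 0, with ID run 2 on the left and ID run 1 on the right. Sums lie between 105 and 375 CPM in ID run 2, where let-7d replicate 3 is the highest bar, and between 729 and 1060 CPM in ID run 1.

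The fall between the runs was shared by nearly every gene of the list. For 29 of the 35 (82.9%) all 6 libraries of ID run 2 were below all 6 of ID run 1, against 30.6% of all genes. In the control libraries alone, 34 of the 35 were lower in ID run 2 than in ID run 1 by edgeR's quasi-likelihood test with Benjamini-Hochberg adjustment (adjusted p under 0.05), and none was higher, where 33.8% of all genes were lower and 35.2% higher. The median log2 difference of the list was -3.78, against 0.04 over all genes.

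Spi1 and Adgre1 were among the genes with a wide gap, as were Cybb and Laptm5 (log2 difference -5.64 and -5.48). Csf1r, named above beside Spi1 for macrophage identity, had one of the smallest gaps (-1.78). Spi1, the gene of PU.1, had 0.301 and 0.0818 CPM in the controls of ID run 2, against 9.20 and 9.60 CPM in those of ID run 1 (log2 difference -5.55 ± 0.48 SE, edgeR adjusted p = 9.08e-08). Adgre1, which encodes the F4/80 surface protein by which mouse macrophages are stained, had 0.752 and 0.164 CPM in ID run 2 and 18.07 and 18.01 CPM in ID run 1 (-5.25 ± 0.58). For both genes the ID run 2 values were under 1 CPM and far from those of ID run 1. Cd52, a small surface glycoprotein of leukocytes, had 1 and 0 counts in the ID run 2 controls and 55 and 43 counts in those of ID run 1. The count table had been filtered by level, with 0.456 CPM the lowest maximum of a gene over the libraries. Cd52 reached at most 0.265 CPM in ID run 2, so it has a row only through ID run 1. Its gap was thus fixed in advance by the filter, also where it is counted above. Itgam, which encodes CD11b, the alpha chain of a complement receptor, had 5 and 0 counts in ID run 2 and 100 and 110 in ID run 1. Of the exonic bases of Itgam, 68.7% are shared with Gm49368 on the same strand, and of those of Cd52, 14.5% with Crybg2 on the opposite strand, so both are uncertain. Counts this low carry little information on a fold change, and 16 of the 35 genes had under 10 counts in control replicate 4.

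At the other end, 3 genes differed far less between the runs. Cd53, a tetraspanin of leukocyte membranes on chromosome 3 (106759921 to 106790149, minus strand, GRCm38), had 17.1 and 16.7 CPM in the controls of ID run 2 and 16.6 and 15.9 CPM in those of ID run 1. Its log2 difference was 0.05 ± 0.18 SE (edgeR adjusted p = 0.795), and the controls of the runs lay close together. Cd14, the co-receptor for bacterial lipopolysaccharide, had 4.40 and 4.25 CPM in ID run 2 and 8.68 and 9.53 CPM in ID run 1 (-1.07 ± 0.17, edgeR adjusted p = 3.67e-05). Csf1r, the receptor for the macrophage growth factors, had 7.41 and 7.61 CPM in ID run 2 and 24.0 and 27.7 CPM in ID run 1 (-1.78 ± 0.14, edgeR adjusted p = 4.05e-08). For Cd14 and Csf1r the runs did not overlap in the controls, but the gap was smaller than the median of the list. Of the exonic bases of Csf1r, 15.1% are shared with Hmgxb3 on the opposite strand, and since the strand setting of the counting is not given in the sources used here, its reads cannot be told apart from those of Hmgxb3 there.

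Other cell types differed between the runs as well, and their part in the gap was not tested. All 23 adipocyte genes tested were lower in the ID run 2 controls than in the ID run 1 controls, with a median log2 difference of -2.99. Over all genes 33.8% were lower and 35.2% higher. The 20 genes of preadipocytes and fibroblasts had 13 higher and 6 lower, with a median of 0.65. Their sum went the other way, at 28410 and 27610 CPM in the ID run 2 controls and 42800 and 45010 CPM in the ID run 1 controls. The 4 defining preadipocyte markers summed to 391 to 451 CPM in the ID run 2 controls and 445 to 467 CPM in the ID run 1 controls. Of 14 monocyte genes 6 had a row, of which 3 were higher and 2 lower, and their sum was 2444 and 2620 CPM in the ID run 2 controls and 4458 and 5136 CPM in the ID run 1 controls. Among them Plac8, the only defining one of 4 with a row, had 388 to 562 CPM over the libraries of ID run 2 and 47.9 to 70.9 CPM over those of ID run 1, against the direction of that sum.

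**Figure D2:**
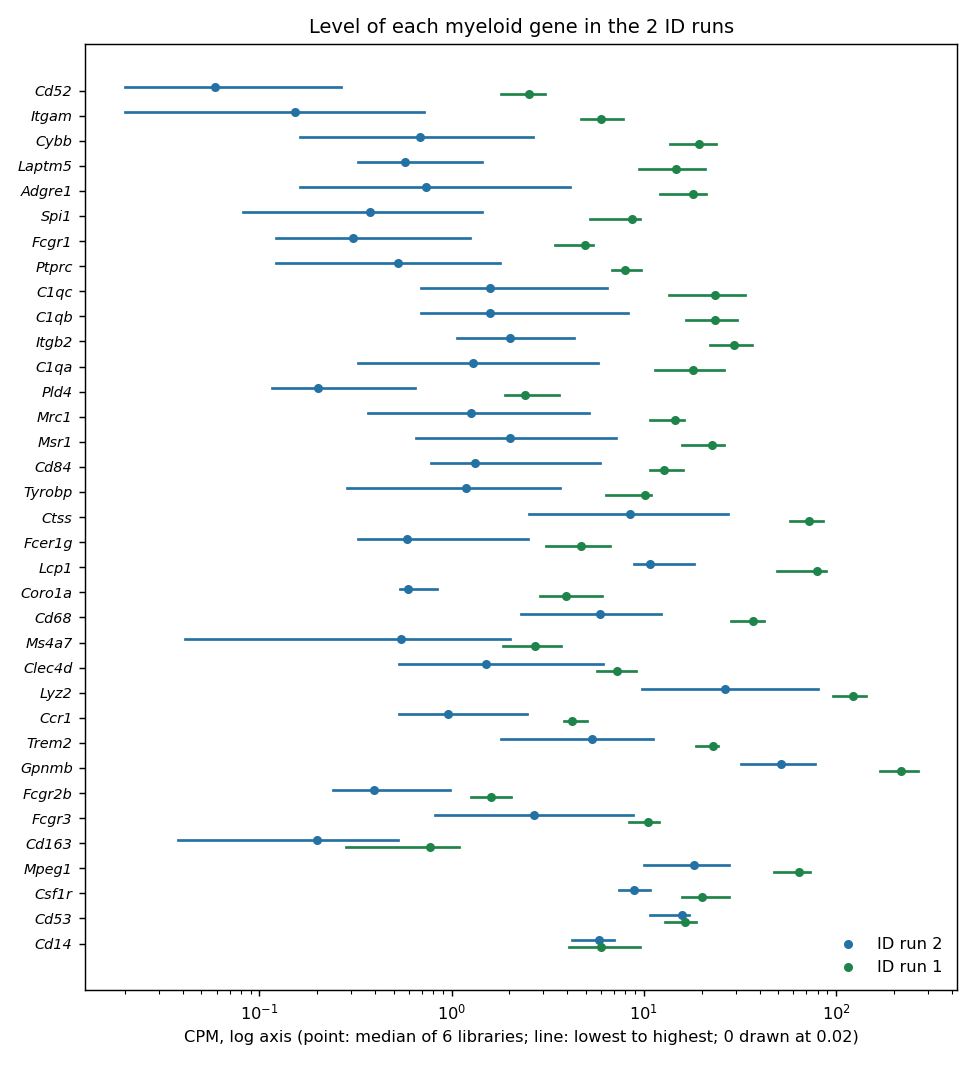
For each of the 35 genes the point is the median and the line the lowest to highest CPM over the 6 libraries of ID run 2 (blue, upper) and of ID run 1 (green, lower), on a log axis, with 0 drawn at 0.02. The lines do not meet for 29 genes, and for Cd53 and Cd14 they lie nearly over each other.

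In ID run 2 the let-7d libraries held more myeloid message than the controls across most of the list. By edgeR's quasi-likelihood test 17 of the 35 rose and none fell, where 3.29% of all genes rose and 5.26% fell, and the median log2 fold change was 1.80, against -0.01 over all genes. For 26 genes both let-7d libraries were above both controls (22.8% of all genes), and for 1, Cd53, both were below (27.6% of all genes). At an unadjusted p under 0.05 the number in either direction was 31, against 3737 of all 15754 genes. Let-7d replicate 3 carried most of this, being the highest of the 6 libraries for 33 of the 35 genes. Its median log2 ratio to the control mean of the run was 2.08, and that of let-7d replicate 4 was 0.62. Control replicate 4 was the lowest of the 6 for 29 genes. Without let-7d replicate 3 the median log2 fold change was 0.68, and without control replicate 4 it was 1.34. Without let-7d replicate 4 the median was 2.41. Each of these fits leaves 1 library in a group and run, which alters the power for every gene. Gpnmb, Trem2 and Lyz2 were the genes called without let-7d replicate 3 and without control replicate 4, so the other 14 calls named below rest on both of these libraries.

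**Figure D3:**
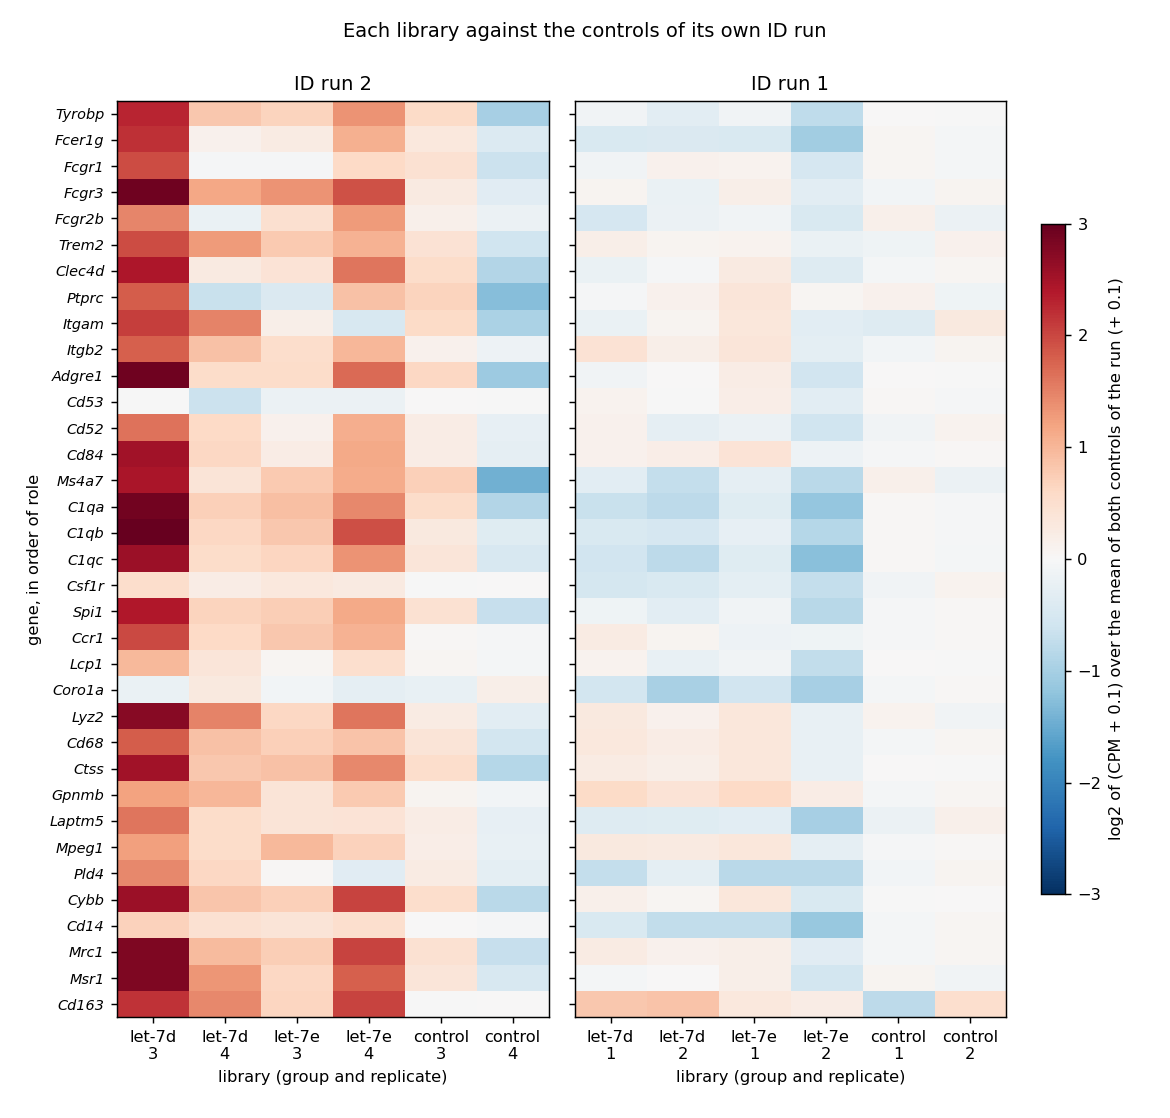
Colour gives log2 of CPM + 0.1 in each library over the mean of both controls of its own run, with genes in rows by role and libraries in columns, ID run 2 on the left and ID run 1 on the right. The column of let-7d replicate 3 is red for nearly all genes, with a median of 2.08, and that of let-7e replicate 2 in ID run 1 is mostly blue, with a median of -0.46.

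Among the lysosomal and secreted proteins, 5 of 8 rose with let-7d in ID run 2. Gpnmb, a lysosomal membrane glycoprotein of lipid-laden macrophages on chromosome 6 (49036546 to 49070929, plus strand), had 77.7 and 67.7 CPM in the let-7d libraries of ID run 2 and 35.6 and 31.9 CPM in the controls. Both let-7d libraries were above both controls by a wide margin and close to each other, and the log2 fold change was 1.11 ± 0.14 (SE, edgeR adjusted p = 0.000333). Lyz2, the lysozyme of macrophages and neutrophils on chromosome 10 (117277331 to 117282321, minus strand), had 80.7 and 33.9 CPM with let-7d and 14.4 and 9.74 CPM in the controls (2.24 ± 0.37, edgeR adjusted p = 0.00201). The let-7d libraries differed by more than the distance of the lower from the controls. Its near-identical copy Lyz1 can share reads with it, so the level of Lyz2 is uncertain in that respect. The others that rose were Cd68, a lysosomal membrane protein of macrophages, with 12.3 and 6.38 CPM against 4.51 and 2.29 CPM in the controls, Ctss, a protease that trims antigens, and Mpeg1, a pore-forming protein that attacks engulfed bacteria. Laptm5, Pld4 and Cybb, the catalytic subunit of the phagocyte oxidase, had log2 fold changes of 1.34, 1.44 and 2.18 and did not pass the test (edgeR adjusted p = 0.114, 0.105 and 0.0789).

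Of the 7 Fc receptors, lectins and ITAM adaptors, 3 rose. Trem2, a lipid-sensing receptor that signals through Tyrobp (chromosome 17, 48346401 to 48354147, plus strand), had 11.1 and 6.90 CPM with let-7d in ID run 2 and 3.76 and 1.80 CPM in the controls, a log2 fold change of 1.68 ± 0.27 (edgeR adjusted p = 0.00178). Fcgr3, an activating receptor for IgG, had 8.73 and 2.53 CPM with let-7d and 1.32 and 0.818 CPM in the controls (2.39 ± 0.49, edgeR adjusted p = 0.00832). Tyrobp itself had 3.67 and 1.24 CPM with let-7d and 1.05 and 0.286 CPM in the controls (1.85 ± 0.53, edgeR adjusted p = 0.0443). In these 3 genes the lower let-7d library still exceeded the higher control, for Tyrobp by little. Fcer1g, Fcgr1, the inhibitory receptor Fcgr2b and the lectin Clec4d had let-7d libraries that overlapped the controls, and none passed.

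The complement genes C1qa, C1qb and C1qc, which lie side by side and encode the 3 chains of C1q, stood at a sum of 20.5 and 4.21 CPM with let-7d, against 3.53 and 1.72 CPM in the controls of ID run 2. C1qa and C1qb rose (log2 fold changes 2.31 ± 0.64 and 2.40 ± 0.65, edgeR adjusted p = 0.0380 and 0.0347), and C1qc did not pass (1.98 ± 0.59, edgeR adjusted p = 0.0513). The gap between the let-7d libraries was again the widest in the run.

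All 4 scavenger and pattern receptors rose. Msr1, which takes up modified lipoproteins, had 7.15 and 2.53 CPM with let-7d and 1.24 and 0.654 CPM in the controls (2.34 ± 0.53, edgeR adjusted p = 0.0146). Mrc1, the mannose receptor, had 5.18 and 1.36 CPM with let-7d and 0.940 and 0.368 CPM in the controls (2.31 ± 0.61, edgeR adjusted p = 0.0305). Cd163, the haemoglobin scavenger receptor, had 14 and 7 counts with let-7d and 1 and 1 counts in the controls (edgeR adjusted p = 0.0457). Cd14 had 6.99 and 5.98 CPM with let-7d and 4.40 and 4.25 CPM in the controls, the smallest rise of the 17, with a log2 fold change of 0.58 ± 0.16 (edgeR adjusted p = 0.0396).

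Of the 8 adhesion and surface proteins, Itgb2, the beta chain shared by leukocyte integrins, and Cd84, a self-binding receptor of leukocytes, rose (1.48 ± 0.37 and 1.97 ± 0.52, edgeR adjusted p = 0.0252 and 0.0312). Adgre1, with 4.12 and 0.722 CPM with let-7d and 0.752 and 0.164 CPM in the controls, overlapped the controls and did not pass (2.38 ± 0.75, edgeR adjusted p = 0.0664). Ptprc, the common leukocyte antigen CD45, had 1.78 and 0.241 CPM with let-7d and 0.752 and 0.123 CPM in the controls and overlapped them too. Cd53 had 16.6 and 10.8 CPM with let-7d and 17.1 and 16.7 CPM in the controls (-0.30 ± 0.17, edgeR adjusted p = 0.315), so that its lowest library was a let-7d one. Of the remaining groups Ccr1, a chemokine receptor of monocytes, rose (1.61 ± 0.41, edgeR adjusted p = 0.0252). Spi1 had 1.44 and 0.361 CPM with let-7d and 0.301 and 0.0818 CPM in the controls without passing (edgeR adjusted p = 0.0668), and Csf1r had 10.8 and 8.71 CPM with let-7d and 7.41 and 7.61 CPM in the controls (0.38 ± 0.15, edgeR adjusted p = 0.137). The actin regulators Lcp1 and Coro1a had log2 fold changes of 0.70 and 0.07 and did not pass.

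The let-7e libraries of ID run 2 were also above the controls for much of the list. By the median log2 ratio to the control mean, let-7e replicates 3 and 4 stood at 0.55 and 1.10, so that let-7e replicate 4 was above let-7d replicate 4 (0.62) and below let-7d replicate 3 (2.08). For 24 of the 35 genes both let-7e libraries were above both controls (20.4% of all genes) and for 1, again Cd53, both were below (21.7% of all genes). The median log2 fold change was 1.04, against 0.00 over all genes, and 12 genes had an unadjusted p under 0.05, against 2374 of all 15754. By edgeR's quasi-likelihood test 1 gene, Gpnmb, rose and none fell, where 0.914% of all genes rose and 1.56% fell. Gpnmb had 44.5 and 58.7 CPM with let-7e and 35.6 and 31.9 CPM in the controls (0.61 ± 0.14 SE, edgeR adjusted p = 0.0319). Lyz2 had 18.7 and 36.7 CPM with let-7e and 14.4 and 9.74 CPM in the controls without passing (1.18 ± 0.38, edgeR adjusted p = 0.128). Let-7e replicate 4 was the higher of the let-7e libraries for both genes. Without let-7e replicate 4 the median was 0.60 and no gene was called, and without control replicate 4 they were 0.58 and 0. Leaving out let-7d replicate 1 or 2, which enter only the estimate of the spread, also left 0 calls, and leaving out let-7d replicate 3 or 4 gave 4. The call of Gpnmb was lost without control replicate 3 too. Both mimics are set against the same controls here.

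In ID run 1, where the list stood much higher, the let-7d libraries did not move it one way. The median log2 fold change was -0.04, against 0.00 over all genes, and with no composition scaling it was 0.01. For 11 genes both let-7d libraries were above both controls (27.0% of all genes) and for 13 both were below (27.6% of all genes), shares close to those of all genes. By edgeR's quasi-likelihood test 1 gene rose and 3 fell, where 4.59% of all genes rose and 6.28% fell. Gpnmb rose, with 259 and 231 CPM in the let-7d libraries of ID run 1 and 169 and 181 CPM in the controls (0.49 ± 0.13 SE, edgeR adjusted p = 0.0265). The 10 other genes with both let-7d libraries above both controls were Lyz2, Cd68, Ctss, Mpeg1, Cybb, Mrc1, Cd163, Ccr1, Itgb2 and Cd84, and none of these passed the test.

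The genes that fell with let-7d in ID run 1 were Cd14, Csf1r and Coro1a. Cd14 (chromosome 18, 36725067 to 36726798, minus strand) had 6.57 and 5.40 CPM with let-7d and 8.68 and 9.53 CPM in the controls, a log2 fold change of -0.61 ± 0.17 (edgeR adjusted p = 0.0292). Csf1r (chromosome 18, 61100598 to 61132149, plus strand) had 17.9 and 18.9 CPM with let-7d and 24.0 and 27.7 CPM in the controls (-0.48 ± 0.13, edgeR adjusted p = 0.0325). Coro1a, an actin-binding protein of leukocytes on chromosome 7 (126699773 to 126707787, minus strand), had 3.98 and 2.95 CPM with let-7d and 5.66 and 6.05 CPM in the controls (-0.77 ± 0.22, edgeR adjusted p = 0.0389). In all 3 the let-7d and control libraries did not overlap. The C1q genes lay on the same side without passing: their sum was 59.4 and 54.8 CPM with let-7d against 90.2 and 85.9 CPM in the controls, with log2 fold changes of -0.73 ± 0.35 for C1qa, -0.50 ± 0.37 for C1qb and -0.68 ± 0.33 for C1qc (edgeR adjusted p = 0.199, 0.437 and 0.208). Spi1, Tyrobp, Fcer1g, Fcgr2b, Laptm5, Pld4 and Ms4a7 were also below both controls in both let-7d libraries, and did not pass. Leaving out either let-7d replicate 1 or 2 left none of the 4 calls of this comparison, as did leaving out control replicate 2, while without control replicate 1 that of Csf1r was left.

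In the summed level, the let-7e libraries of ID run 1 lay on either side of the controls, at 1060 and 729 CPM. Let-7e replicate 1 was the highest of the 6 libraries for 14 of the 35 genes, and let-7e replicate 2 the lowest for 29. Both were below both controls for 15 genes (27.0% of all genes) and above for 1, Gpnmb (24.8% of all genes). By edgeR's quasi-likelihood test none rose and 3 fell, where 3.10% of all genes rose and 4.02% fell, and 7 had an unadjusted p under 0.05, against 3419 of all 15754 genes. The 3 were again Cd14, Csf1r and Coro1a. Cd14 had 5.42 and 4.07 CPM with let-7e and 8.68 and 9.53 CPM in the controls (-0.92 ± 0.17, edgeR adjusted p = 0.00415). Csf1r had 21.1 and 15.7 CPM with let-7e and 24.0 and 27.7 CPM in the controls (-0.47 ± 0.13, edgeR adjusted p = 0.0427). The log2 fold change of Coro1a was -0.77 ± 0.22 (edgeR adjusted p = 0.0471). Gpnmb had 266 and 203 CPM with let-7e and 169 and 181 CPM in the controls without passing (0.43 ± 0.13, edgeR adjusted p = 0.0592). The same control libraries serve both mimics. The call of Cd14 was kept in 19 of 20 alternatives, and those of Csf1r and Coro1a in 13 and 10. Without let-7e replicate 2 none of the 3 calls was left and the median of the list was 0.12, against -0.13 with it and -0.51 without let-7e replicate 1.

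**Figure D4:**
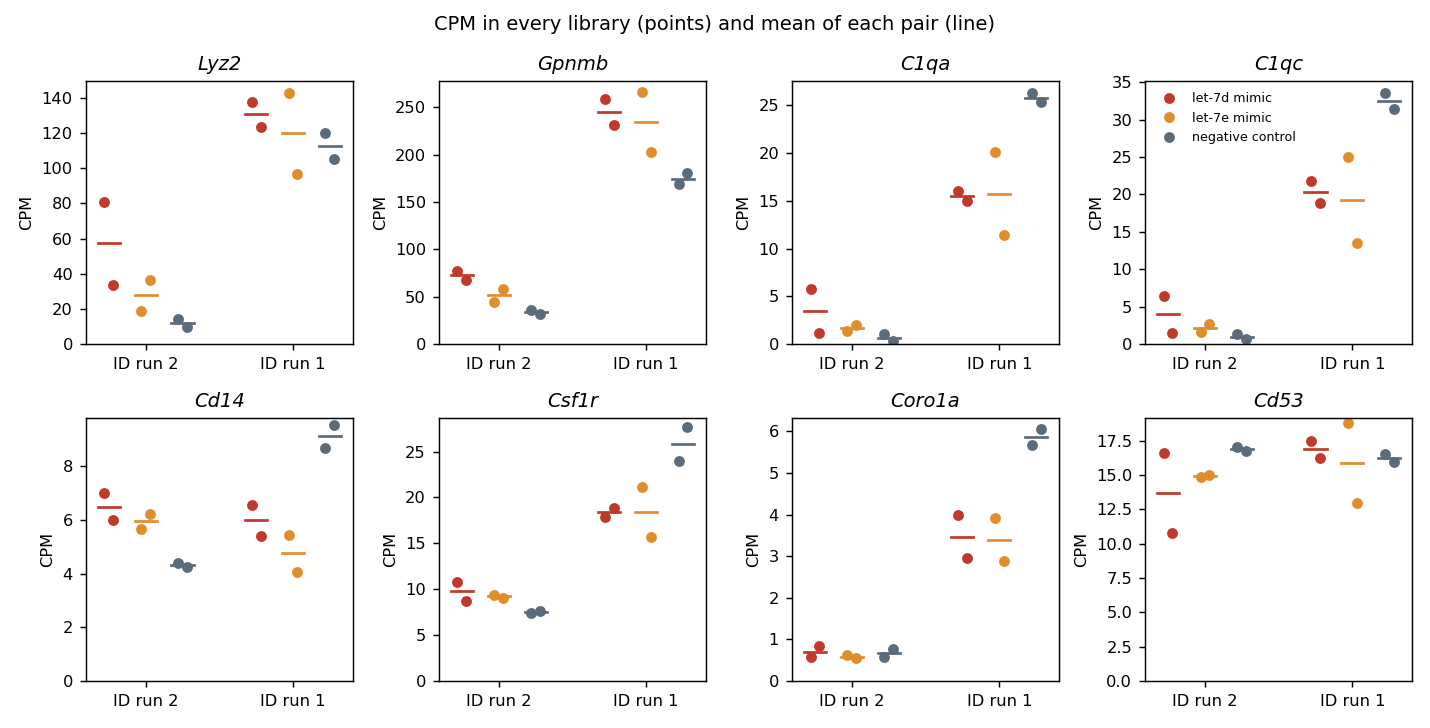
Points give CPM in each library and lines the mean of each pair, for 8 genes, with let-7d mimic, let-7e mimic and negative control from left to right within each ID run, ID run 2 before ID run 1, and axes from 0. Gpnmb is higher in every mimic library than in the controls of its run, while C1qa, C1qc, Cd14 and Csf1r are higher in the mimic libraries of ID run 2 and lower in those of ID run 1.

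Within the list the make-up also differed. C1q took 5.83% and 5.85% of the summed CPM of the list in the let-7d libraries of ID run 1, 6.62% and 5.69% in the let-7e libraries and 10.0% and 9.43% in the controls. Gpnmb took 25.4% and 24.6% with let-7d, 25.1% and 27.8% with let-7e and 18.8% and 19.9% in the controls. So in ID run 1 no mimic library overlapped the controls in either share, whatever its total. In ID run 2 the C1q share was 5.47% and 2.09% with let-7d, 2.81% and 3.85% with let-7e and 2.61% and 1.64% in the controls, and the Gpnmb share was 20.7% and 33.6% with let-7d, 26.6% and 26.2% with let-7e and 26.2% and 30.4% in the controls. There the groups overlapped. These shares were looked at after the values were seen, and they carry no test.

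The difference between the runs in the effect of each mimic was tested directly. For let-7d the effect was larger in ID run 2 for 34 of the 35 genes, with a median log2 difference of 1.90, and 29 had an unadjusted p under 0.05, as had 2136 of all 15754 genes. None passed the adjusted threshold of edgeR's quasi-likelihood test, where 0.0635% of all genes were called higher and 0.178% lower, and 4 passed with DESeq2. Cd14 came closest, with a log2 effect in ID run 2 of 0.58 and in ID run 1 of -0.61 (difference 1.20 ± 0.23 SE, edgeR adjusted p = 0.0518). C1qa had 2.31 in ID run 2 and -0.73 in ID run 1 (3.05 ± 0.73, edgeR adjusted p = 0.0827). For Cd14 and C1qa both let-7d libraries were above both controls in ID run 2 and below both in ID run 1. The number called was 20 without let-7d replicate 4, 3 without control replicate 1 and 1 without control replicate 3. For let-7e none passed (0.00% of all genes higher, 0.00635% lower), 14 had an unadjusted p under 0.05, against 1398 of all 15754 genes, and 1 passed with DESeq2. Cd14 again had the smallest p, with a log2 effect in ID run 2 of 0.45 and in ID run 1 of -0.92 (1.37 ± 0.23, edgeR adjusted p = 0.0845).

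**Figure D5:**
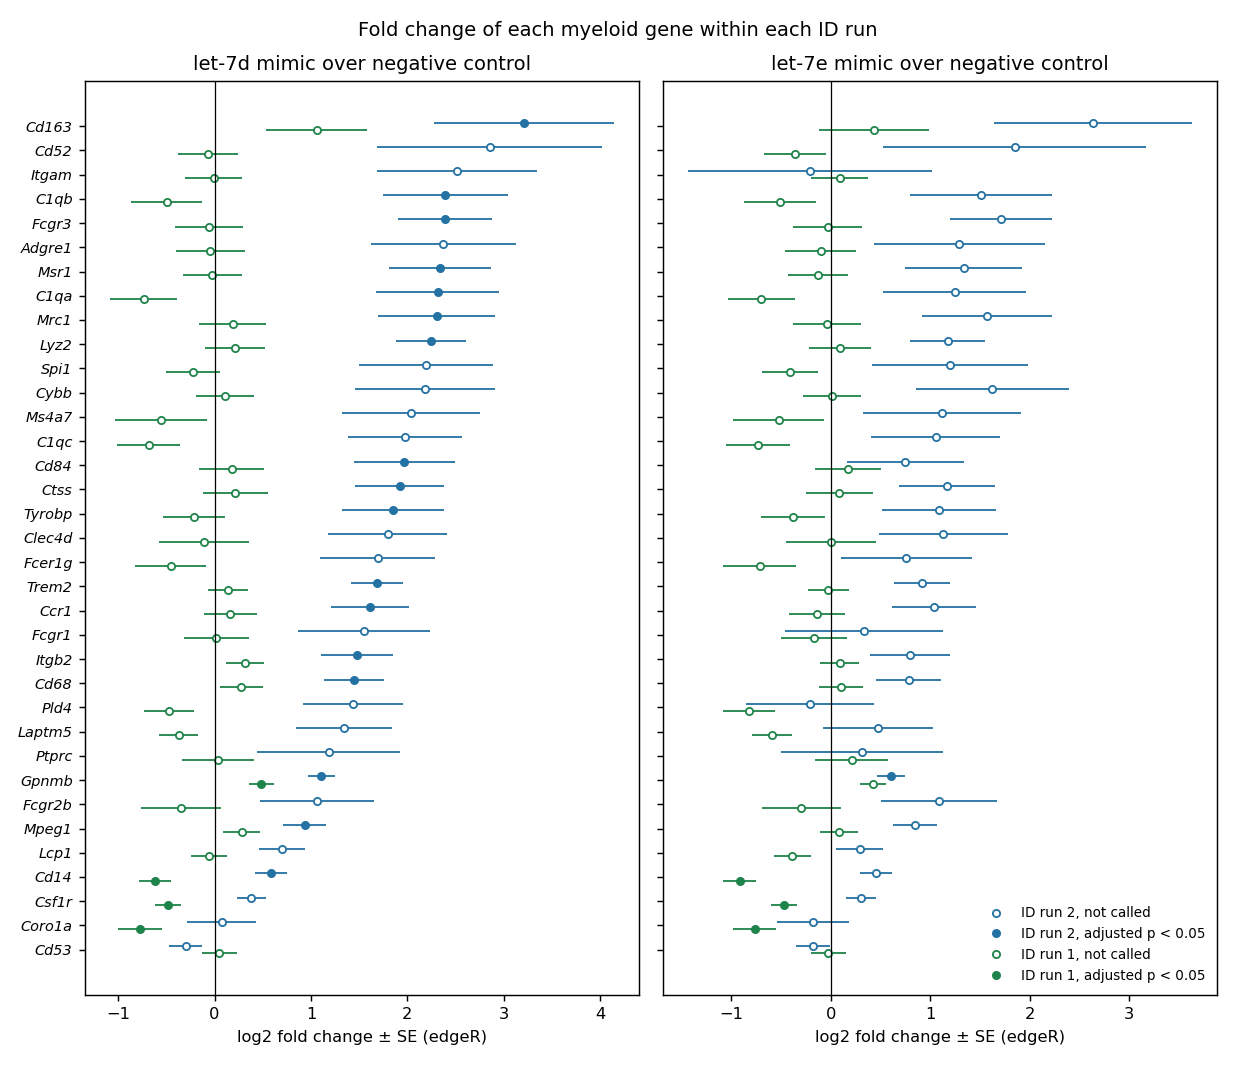
Points are log2 fold changes with SE from edgeR for each of the 35 genes, let-7d over control on the left and let-7e over control on the right, in ID run 2 (blue) and ID run 1 (green), filled where the adjusted p is under 0.05. With let-7d 17 genes are filled above 0 in ID run 2, against 1 above and 3 below in ID run 1. The fitted values of Cd52, Itgam and Cd163 in ID run 2 rest on 0 to 5 counts per control library.

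With both runs in a single fit and a term for the run, 5 of the 35 rose with let-7d and none fell, where 6.41% of all genes rose and 9.81% fell, and 11 had an unadjusted p under 0.05, against 4674 of all 15754 genes. The median log2 fold change was 0.34, against 0.00 over all genes, and 28 of the 35 were above 0. Gpnmb had a log2 fold change of 0.78 ± 0.12 (SE, edgeR adjusted p = 0.000447), Mpeg1 0.55 ± 0.17 (edgeR adjusted p = 0.0381) and Cd163, which had 24 counts or fewer in every library, 1.56 ± 0.48 (edgeR adjusted p = 0.0357). The other 2 were Lyz2 and Cd68. Only Gpnmb was left of the 5 without let-7d replicate 3, 1 gene was called without control replicate 3 and without control replicate 4, and 2 were called without let-7d replicate 1. With let-7e 1 gene rose, Gpnmb (0.50 ± 0.12, edgeR adjusted p = 0.0153), and none fell, where 3.81% of all genes rose and 5.69% fell. The median of the list was 0.09, which turned to -0.18 without let-7e replicate 1 and to -0.03 without control replicate 4, and 19 of 35 genes were above 0. Gpnmb was thus higher than the controls of its run in all 8 mimic libraries. Its call with let-7e was lost without let-7e replicate 1 and without let-7e replicate 4.

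Set directly against each other, the mimics did not give a difference past the threshold for any of the 35 genes (0.0571% of all genes higher with let-7d and 0.0952% lower), and 3 had an unadjusted p under 0.05, against 1467 of all 15754 genes. The log2 difference, let-7d over let-7e, was above 0 for 33 of the 35, with a median of 0.38, and without let-7d replicate 3 for 20, with a median of 0.05. Within ID run 2 alone the median was 0.76 and turned to -0.30 without let-7d replicate 3, and within ID run 1 it was 0.12 and turned to -0.12 without let-7e replicate 2. Gpnmb had 0.28 ± 0.12 (edgeR adjusted p = 0.486) and Lyz2 0.63 ± 0.33 (edgeR adjusted p = 0.587). Within ID run 2 none passed (0.0381% of all genes higher, 0.0254% lower), 8 had an unadjusted p under 0.05, against 1669 of all 15754 genes, and DESeq2 called 2. Both let-7d libraries were above both let-7e libraries for Gpnmb, Trem2, Cd68, Laptm5, Pld4 and Itgam. Itgam had 19 and 11 counts with let-7d and 4 and 1 with let-7e. The number of genes with both let-7d libraries above was thus 6 (17.1%), like the share over all genes (17.2%). Within ID run 1 that number was 4 (21.3% of all genes) and both were below for 0 (21.0% of all genes), none passed (0.00635% of all genes higher) and no gene of the list had an unadjusted p under 0.05, against 778 of all 15754. Without let-7d replicate 4 the number called in ID run 2 was 4, and without let-7e replicate 4 it was 1. A p that misses the threshold does not show that the mimics act alike.

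Other gene lists of the macrophage, grouped by role, were read in the same fits. With let-7d 3.29% of all genes rose and 5.26% fell in ID run 2, and 4.59% rose and 6.28% fell in ID run 1. Of 25 tested genes of lipid-associated macrophages and multinucleate giant cells, 11 rose and 5 fell with let-7d in ID run 2 (median 0.33), and 2 rose and 2 fell in ID run 1 (median 0.06). The 4 with the smallest p in ID run 2 were Abcg1, a cholesterol exporter that fell (-0.75 ± 0.10), the tetraspanin Cd9 (0.55 ± 0.08), the lysosomal metal transporter Slc11a1 (1.19 ± 0.19) and the protease cathepsin K, Ctsk (0.49 ± 0.08), with edgeR adjusted p up to 0.00223. Cd9 also rose in ID run 1 (0.43 ± 0.08, edgeR adjusted p = 0.00479). Mmp12, the macrophage elastase, named here after its values were seen, had 73.5 and 23.6 CPM with let-7d, 13.6 and 27.2 CPM with let-7e and 9.62 and 3.89 CPM in the controls of ID run 2. It followed the order of the myeloid sum in those 6 libraries, and rose with let-7d (2.83 ± 0.49, edgeR adjusted p = 0.00291).

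Myeloid transcription factors had 2 rises and no fall among 19 tested genes in each run with let-7d. Of all genes 3.29% rose and 5.26% fell in ID run 2, and 4.59% and 6.28% in ID run 1. Mitf, a transcription factor of pigment cells, osteoclasts and macrophages, had 22.9 and 22.3 CPM with let-7d, 18.5 and 20.4 CPM with let-7e and 14.9 and 12.1 CPM in the controls of ID run 2. In ID run 1 it had 16.4 and 17.5 CPM with let-7d, 15.2 and 13.1 CPM with let-7e and 10.1 and 10.9 CPM in the controls. Every mimic library was above both controls of its run, and Mitf, unlike most of the list, was higher in ID run 2 than in ID run 1 in each group. With the run term it rose with let-7d by 0.72 ± 0.08 (edgeR adjusted p = 2.88e-05) and with let-7e by 0.49 ± 0.08 (edgeR adjusted p = 0.00109). Cebpb, a factor of both fat cell and macrophage differentiation, rose in ID run 2 (0.75 ± 0.08, edgeR adjusted p = 0.000135) and stood at 0.00 ± 0.08 in ID run 1.

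Of 42 further macrophage surface receptors 4 rose and 1 fell with let-7d in ID run 2 (median 0.77), and none passed in ID run 1 (median -0.03, 5 at an unadjusted p under 0.05). The shares over all genes, here and for the next lists, were 3.29% up and 5.26% down in ID run 2. In ID run 1 they were 4.59% and 6.28%. Of 47 genes of haematopoietic signalling and cytoskeleton 2 rose and 2 fell in ID run 2 and 1 fell in ID run 1. Of 15 genes of resident macrophages 3 rose and 1 fell in ID run 2, led by the chemokine Ccl8 (1.10 ± 0.17, edgeR adjusted p = 0.00150) and the scavenger protein Cd5l. Cd5l had 2.46 and 0.883 CPM with let-7d and 0.0752 and 0.123 CPM in the controls. With the run term Ccl8 rose with let-7d (1.02 ± 0.15, edgeR adjusted p = 0.000270) and let-7e (1.11 ± 0.15, edgeR adjusted p = 0.000205). Calls of the resident list in ID run 1 are not given here. Its sum was 1416 and 1072 CPM in the ID run 2 controls and 1125 and 1080 CPM in the ID run 1 controls, which overlapped. The sum of the 42 surface receptors did not overlap, at 290.1 and 272.5 CPM against 430.8 and 468.3 CPM. Of 15 growth factors and chemoattractants, the chemokines Ccl6 and Ccl9 rose in ID run 2 (2.66 ± 0.49 and 0.75 ± 0.13, edgeR adjusted p = 0.00447 and 0.00361), and 1 rose and 2 fell in ID run 1. The gene that rose there was Csf1, whose product feeds macrophages through Csf1r, with 1286 and 1308 CPM with let-7d and 1033 and 1040 CPM in the controls (0.32 ± 0.08, edgeR adjusted p = 0.0133).

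Markers of other cell types beside the let-7d result of ID run 2 were as follows, and their part in it was not tested. Over all genes 3.29% rose and 5.26% fell in that comparison. Of 19 endothelial genes 3 rose and 1 fell, and their sum was 602 and 460.5 CPM with let-7d against 476.5 and 467.5 CPM in the controls, so that let-7d replicate 3 again was the highest. Of 23 adipocyte genes none rose and 6 fell, with sums of 9317 and 8352 CPM with let-7d and 10440 and 7711 CPM in the controls. Smooth muscle and pericyte genes, with 1 rise and 1 fall among 14, had sums of 6004 and 6576 CPM with let-7d and 7578 and 7918 CPM in the controls. Mast cell and basophil genes had no call among 7, with sums of 40.6 and 37.9 CPM with let-7d and 30.5 and 34.1 CPM in the controls. Neutrophil genes, of which 4 of 16 had a row, had 1 rise and sums of 13.99 and 9.71 CPM with let-7d and 9.81 and 8.14 CPM in the controls. Dendritic cell genes, of which 8 of 15 had a row, stood at 863 and 879 CPM with let-7d and 991 and 922 CPM in the controls. B cell genes, with 6 of 14, stood at 80.3 and 85.0 CPM against 94.1 and 89.2 CPM. T and NK cell genes, with 5 of 25, stood at 6.28 and 5.34 CPM against 7.67 and 7.65 CPM. The defining markers were a small part of the dendritic and B cell sums. Zbtb46 and Clec9a summed to 9.19 to 10.1 CPM with let-7d and 11.4 to 12.5 CPM in the controls. Pax5 stood at 0.416 to 0.562 CPM against 0.818 to 0.827 CPM. In the T and NK cell, neutrophil and monocyte sums, too, only 1 gene each was a defining marker. Lck stood at 1.63 to 2.05 CPM with let-7d and 2.62 to 3.195 CPM in the controls. Mpo stood at 0.802 to 1.17 CPM against 0.818 to 1.05 CPM, and Plac8 at 451 to 507 CPM against 388 to 500 CPM. Monocyte genes, of which 6 of 14 had a row, stood at 2424 and 2636 CPM with let-7d and 2444 and 2620 CPM in the controls. The 20 genes of preadipocytes and fibroblasts summed to 29200 and 29580 CPM with let-7d and 28410 and 27610 CPM in the controls. The 4 defining preadipocyte markers summed to 507 to 526 CPM with let-7d and 391 to 451 CPM in the controls. The let-7d libraries thus lay below both controls in the smooth muscle, dendritic, B and T and NK cell sums. They lay above both in the mast cell and preadipocyte sums and overlapped the controls in the endothelial, adipocyte, neutrophil and monocyte sums. The sum of 14 mesothelial genes overlapped too, at 178.5 and 152.6 CPM with let-7d and 147.2 and 156.7 CPM in the controls. With the run term Clec9a rose with let-7d (1.22 ± 0.31) and Zbtb46 fell (-0.40 ± 0.08), so the dendritic sum is not a level of these cells.

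The let-7 seed match CTACCTC was sought in the longest annotated 3′ UTR of each gene (GENCODE vM21, GRCm38.p6). It was found in 2 of the 35 genes (5.71%), against 1427 of 13547 tested genes with a 3′ UTR (10.5%). The matches are printed with flanking bases and the 7 letters in capitals, to show that the scavenger receptor Msr1 and the leukocyte receptor Cd84 carry them.
Msr1 3′ UTR: tcatgtcaattcCTACCTCacagggttgtt
Cd84 3′ UTR: aggaaaagaattCTACCTCaaaggcccaga
Both genes were among those that rose with let-7d in ID run 2, and in ID run 1 they had log2 fold changes of -0.02 ± 0.30 and 0.18 ± 0.34 with let-7d. Gpnmb, Cd14, Csf1r and Coro1a had no match in that window. A match is a description of letters, not a measured site.

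Promoters are shown because most of the list moved together between the runs. The window is the 300 bases around the annotated start of RefSeq (GRCm38.p6), and 27 of the 36 listed genes have at least 1 window. The core letters of the PU.1 motif, GAGGAA on either strand, which reads TTCCTC on the other, occurred in any window of 19 of these 27 genes (70.4%), against 3432 of 11240 tested genes with a window (30.5%). The 19 include Aif1, which has no row in the count table and is not a tested gene. The longer string GAGGAAGT, which contains the first, occurred in 4 of the 27 genes (14.8%, in C1qc, Cd53, Ctss and Pld4), against 399 of the 11240 (3.55%). The windows of 3 of these genes follow in the direction of transcription, with GAGGAA or TTCCTC in capitals. Ctss and C1qc stand for genes far lower in ID run 2 than in ID run 1, and Cd53 for the gene that was not.
Ctss, chr3:95526536-95526835, plus strand: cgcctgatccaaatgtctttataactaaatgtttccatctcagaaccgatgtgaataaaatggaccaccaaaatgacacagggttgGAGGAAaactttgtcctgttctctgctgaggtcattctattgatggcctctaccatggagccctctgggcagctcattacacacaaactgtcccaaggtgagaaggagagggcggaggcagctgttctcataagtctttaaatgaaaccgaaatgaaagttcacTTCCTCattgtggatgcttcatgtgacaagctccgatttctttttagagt
C1qc, chr4:136892865-136893164, minus strand: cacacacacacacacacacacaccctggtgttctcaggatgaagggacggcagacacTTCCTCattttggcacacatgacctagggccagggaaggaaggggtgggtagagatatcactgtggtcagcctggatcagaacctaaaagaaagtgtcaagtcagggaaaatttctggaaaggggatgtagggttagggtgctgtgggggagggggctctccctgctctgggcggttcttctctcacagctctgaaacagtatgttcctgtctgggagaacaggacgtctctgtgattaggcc
Cd53, chr3:106790100-106790399, minus strand: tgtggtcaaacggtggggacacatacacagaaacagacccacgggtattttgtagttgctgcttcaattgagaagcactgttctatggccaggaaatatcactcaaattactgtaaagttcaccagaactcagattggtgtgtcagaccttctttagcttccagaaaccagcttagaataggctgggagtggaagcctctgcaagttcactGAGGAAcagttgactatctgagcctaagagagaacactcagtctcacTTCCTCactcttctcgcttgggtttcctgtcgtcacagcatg
Ctss had 27.5 and 8.31 CPM with let-7d and 6.84 and 2.54 CPM in the controls of ID run 2, and 80.0 and 76.2 CPM with let-7d and 68.1 and 66.3 CPM in the controls of ID run 1. The capitals occur in the windows of Ctss, C1qc and Cd53 alike, while the run difference of Cd53 was near 0. Lyz2, Gpnmb, Mpeg1, Lcp1, Coro1a, Fcer1g, Fcgr2b and Cd163 had neither GAGGAA nor TTCCTC in any window. All of these were lower in the ID run 2 controls than in the ID run 1 controls (log2 differences from -2.275 to -3.776). Whether the letters bear on the run difference was not tested.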

How the data were processed

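RNA was sequenced from 12 libraries of adipocytes cultured from mouse epididymal fat, 4 per group, where the series' design text gives a larger n. The deposited table holds raw counts per gene that the authors made; reads were aligned with STAR to GRCm38.p6, per the submitters' processing notes, while neither the counter nor its strand setting is stated in these sources. The lowest maximum over libraries was 0.456 CPM, so genes of low level had been taken out. A second deposited table of RPKM values was not used, because the gene lengths it implies disagree with the counts. The 36 genes and the other lists were chosen with earlier results of these data known. Of 15754 identifiers 15742 matched a symbol.

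Counts were scaled by TMM and tested with edgeR 4.0.16 (R 4.3.3, limma 3.58.1) by quasi-likelihood F tests with Benjamini-Hochberg adjustment over all 15754 genes, none of which edgeR's own filter removed. The fit over both runs held group and ID run (8 residual degrees of freedom), and the fit of group by run (6 residual degrees of freedom) gave the values within a run and their difference. The threshold for a call was an adjusted p of 0.05. CPM are counts relative to the TMM-scaled library total, errors of fold changes are SE, and values are given per library, 2 per group and run. The figures were drawn with matplotlib 3.10.9 and use a pseudocount of 0.1 CPM for log ratios to the controls. All genes of the list could be named, and of each other list up to 4 genes with the smallest p in the comparison described, with defining markers besides; exceptions are stated. The procedure was tested on simulated data. Alternatives were DESeq2 1.42.0, limma-voom, other scalings, filters and fits, a replicate block and leaving out each library. Whether the replicate numbers pair the libraries is not stated, and the main fits did not pair them. No library pair of a group was alike within sampling noise (chi-square per degree of freedom 2.31 to 9.92).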

Additional observations from a re-analysis of the deposited data

How the results depend on the processing

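The libraries had 15071299 to 33396316 counts, which leaves many of the 35 genes with few reads in ID run 2, where 16 had under 10 counts in control replicate 4. With 2 libraries per group and run, single libraries decide most counts of calls. Leaving 1 out leaves 1 library in its group and run and alters the power for every gene. Counts over all genes in those fits are not given here, so calls lost or gained there are not a trait of this list alone. No called gene of the list changed direction under any alternative run. In the controls, 33 to 34 genes were called lower in ID run 2 than in ID run 1 when 1 library was left out, and Cd163 was the call lost, without control replicate 2.

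Genes higher with let-7d over both runs numbered 5, against 3 with DESeq2, 2 with robust dispersion, 3 with the 8 libraries compared alone, 0 without a term for the run and 1 to 6 when 1 library was left out. With the replicate number as a block there were 3. Whether the numbers pair the libraries is not stated. Same-numbered deviations correlated at -0.065 to 0.188, which cannot decide it, because the 2 libraries of a group and run deviate as mirror images. Limma-voom called 1 gene lower with let-7d and 1 lower with let-7e, against 0, and leaving out 1 library gave 0 to 1 for each. For let-7e the 1 gene higher became 0 with robust dispersion, 0 without a run term and 0 to 2 when 1 library was left out.

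In ID run 2 the 17 genes higher with let-7d became 8 with limma-voom, 5 with robust dispersion, 8 with the 6 libraries of the run alone and 3 to 29 when 1 library was left out. The 1 gene higher with let-7e became 0 with robust dispersion and 0 to 4 when 1 library was left out. Between the mimics DESeq2 called 2 genes higher with let-7d, against 0, and leaving out 1 library gave 0 to 4. In ID run 1 the 1 gene higher with let-7d became 0 with robust dispersion and 0 to 1 when 1 library was left out. The 3 lower became 1 with total counts, 6 with the 6 libraries of the run alone and 0 to 4 when 1 library was left out. For let-7e in ID run 1 the number higher was 1 with total counts, with DESeq2 and with the 6 libraries of the run alone, against 0, and 0 to 1 when 1 library was left out. The 3 lower became 1 with total counts, 8 with the 6 libraries of the run alone and 0 to 4 when 1 library was left out.

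The run difference of the let-7d effect was called for 1 gene with total counts, 4 with DESeq2, 1 with robust dispersion and 0 to 20 when 1 library was left out, against 0. That of the let-7e effect was called for 1 with DESeq2, 1 with robust dispersion and 0 to 1 when 1 library was left out, against 0. The log2 ratio of mean summed CPM, let-7d over control in ID run 1, was 0.11 and turned to -0.13 without Gpnmb, Lyz2, Lcp1, Ctss and Mpeg1, the 5 genes of highest mean CPM. That of let-7e was -0.02 and became 0.0145 with total counts. The cause of these differences was not tested.

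Scaling by total counts moved the split of calls over all genes. With let-7d over both runs it gave 1451 higher and 1089 lower, against 1010 and 1545. In ID run 1 it gave 1102 and 687, against 723 and 989, and in ID run 2 648 and 639, against 519 and 829. With let-7e in ID run 1 it gave 631 and 496, against 488 and 634. Between the mimics it gave 9 and 2, against 9 and 15.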
